A study of Arabidopsis thaliana with 50 samples.

Results

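The comparison described here sets *med12* seedlings of *Arabidopsis thaliana* against Col-0 seedlings under ordinary long-day growth, and asks which functions rise and fall when MED12 is disrupted in an otherwise wild-type plant. Its members are the 8 libraries titled *med12* and Col-0, replicates 1 to 4 of each, of 50 libraries in the series. *med12* plants carried the T-DNA insertion allele *cct-2* in the Columbia-0 accession, and the Col-0 plants carried no insertion. Both were grown on MS medium with sucrose. Neither group carried *morc1* or the *SDC:GFP* transgene that many other libraries of the series share. RNA came from whole seedlings at 8 days of age, several seedlings to a replicate, so all organs of the seedling contribute to each value. The labels do not say which replicates came from separate plates or days. In the gene tests of this comparison, p-values measure the spread between libraries. That spread was estimated from these 8 together with 4 *med13* libraries, which carry the T-DNA insertion allele *gct-2*.

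Mediator is the large protein complex that carries signals from DNA-bound transcription factors to RNA polymerase II. MED12 and MED13, together with the kinase CDK8 and a C-type cyclin, form a module that attaches to Mediator and comes off it again. In Arabidopsis this kinase module is known for its roles in embryo patterning, the timing of flowering, and defence.

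The 4 *med12* libraries held 5921442 to 6436349 counts and the 4 Col-0 libraries 5696151 to 6116629 (exact two-sided permutation test of the means, p = 0.4, where 4 libraries against 4 can reach 0.0286). All 6 pairs of *med12* libraries and all 6 pairs of Col-0 libraries differed by more than sampling noise, and the chi-square per degree of freedom ranged from 1.82 to 2.61 within *med12* and from 1.3 to 1.56 within Col-0. Chloroplast genes took 0.0352 to 0.0390% of the counts in *med12* and 0.0357 to 0.0456% in Col-0. As a check of the tissue, all 26 genes on a list of light-harvesting and photosystem genes and all 23 genes on lists of root hair, Casparian strip and suberin genes had enough counts to be tested. Levels are given in CPM, which are counts divided by the size of the library after TMM scaling in edgeR and brought to a common total. At the depth of these libraries 3 counts correspond to 0.464 to 0.511 CPM in *med12* and 0.488 to 0.529 CPM in Col-0.

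*MED12* itself (AT4G00450) was at 65.3, 63.6, 65.7 and 63.0 CPM in *med12*, against 170, 177, 166 and 166 CPM in Col-0, counted over the whole gene. Where the insertion lies relative to the counted reads was not examined. Every *med12* library lay below every Col-0 library, at a log2 fold change of -1.40 with a standard error of 0.04. The adjusted p was 2.5e-10, and as for every gene below it came from the quasi-likelihood test of edgeR after Benjamini-Hochberg adjustment. The other 4 genes of the kinase module were not called. *MED13*, its second large subunit, was at 147, 144, 155 and 149 CPM in *med12*, against 107, 117, 110 and 115 CPM in Col-0, a log2 fold change of 0.41 that stayed under 1.5-fold. *CDK8*, the kinase, had a log2 fold change of -0.14, and the cyclin genes AT5G48630 and AT5G48640 had -0.14 and 0.16. None of 12 genes of Mediator's head, middle and tail was called in either direction.

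Of 37050 nuclear genes in the files, 20681 had enough counts to be tested. A gene was counted as changed when it differed by over 1.5-fold with an adjusted p below 0.05. By this rule 1587 (7.67%) were upregulated and 1056 (5.11%) downregulated in *med12*. The median log2 fold change over all genes tested was -0.0016. Without any threshold, all 4 *med12* libraries lay above all 4 Col-0 libraries in 19.4% of the genes and below them in 18.7%. These shares are the background for every list that follows. Calls were more frequent among weakly expressed genes. When the genes were divided into 5 groups of equal size by mean level over all 8 libraries, 18.2% of the lowest group were upregulated and 13.3% downregulated, whereas in the highest group 1.79% were upregulated and 0.749% downregulated. PCR duplicates had been removed from these single-end reads, which lowers the counts of the most abundant transcripts, and the part of that step in this difference was not tested. Genes with 1 exon made up 23.0% of the upregulated and 33.8% of the downregulated protein-coding genes, against 14.2% of those not called. In RNA from whole seedlings, more cells of a type and more RNA per cell cannot be told apart.

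Most morning genes of the circadian clock were upregulated in *med12* at the time of sampling. The plants were harvested at the same time, at an hour that the study's methods do not give. For genes that cycle over the day, here and below, a shift in timing and a change in level therefore cannot be told apart. The clock is a loop of transcription factors that repress one another in turn over the day, from *CCA1* and *LHY* at dawn through the *PRR* genes to *TOC1* and the evening complex at dusk. Of 14 genes on a list of morning-expressed clock genes, 9 were upregulated and 1 was downregulated, with a median log2 fold change of 1.68. *LNK1*, a coactivator that works with the RVE8 family, was at 81.0, 72.5, 48.7 and 37.8 CPM in *med12*, against 0.881, 1.14, 2.00 and 1.64 CPM in Col-0. The lowest *med12* library was far above the highest Col-0 library, although the *med12* libraries also differed among themselves. Its difference was the highest of the list (log2 fold change 5.38, standard error 0.48, adjusted p = 2.5e-06). *PRR9*, the first pseudo-response regulator of the day, was at 6.55, 4.02, 1.99 and 1.87 CPM in *med12*, against 0, 0.325, 0.333 and 0 CPM in Col-0 (log2 fold change 4.28, standard error 0.65, adjusted p = 0.00017). *LNK3*, another member of the LNK family, had a log2 fold change of 3.69. *LNK1*, *PRR9* and *LNK3* shared a spread within *med12*, highest in replicate 1 and lowest in replicate 4. *CCA1*, one of the paired dawn repressors, was at 7.22, 4.33, 5.96 and 5.96 CPM in *med12*, against 0.353, 0.975, 0.333 and 0.655 CPM in Col-0 (log2 fold change 3.28, adjusted p = 4.4e-06). Its partner *LHY* was at 2.18, 1.39, 3.64 and 1.70 CPM in *med12*, against 1.76, 3.58, 1.5 and 1.47 CPM in Col-0, and these libraries overlapped. *RVE2*, a MYB-like relative of *CCA1*, went the other way, at 44.5, 42.5, 37.6 and 45.1 CPM in *med12*, against 78.4, 71.8, 76.7 and 70.3 CPM in Col-0 (log2 fold change -0.81).

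The 300 bases around the annotated start of *LNK1* and *CCA1*, from 250 before it to 50 after it, are given below from the RefSeq genome of TAIR10.1, in the direction of transcription. They are shown because a G-box, the letters CACGTG bound by bZIP and bHLH factors, lies in each of them and in 10 of the 14 morning clock promoters, as against 8.95% of all promoters of tested protein-coding genes. The G-box is in capitals. *LNK1* lies at chr5:25676774-25677073, minus strand, and *CCA1* at chr2:19245341-19245640, plus strand.
LNK1: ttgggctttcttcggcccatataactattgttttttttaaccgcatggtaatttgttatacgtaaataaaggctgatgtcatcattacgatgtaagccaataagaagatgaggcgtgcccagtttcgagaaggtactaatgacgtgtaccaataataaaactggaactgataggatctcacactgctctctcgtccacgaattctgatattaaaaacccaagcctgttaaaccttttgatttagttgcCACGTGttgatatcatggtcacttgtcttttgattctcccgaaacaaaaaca
CCA1: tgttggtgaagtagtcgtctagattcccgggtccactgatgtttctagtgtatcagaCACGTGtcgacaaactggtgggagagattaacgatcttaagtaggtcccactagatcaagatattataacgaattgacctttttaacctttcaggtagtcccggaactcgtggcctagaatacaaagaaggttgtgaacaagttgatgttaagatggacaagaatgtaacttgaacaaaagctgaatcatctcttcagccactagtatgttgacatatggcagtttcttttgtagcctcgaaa

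**Figure D1:**
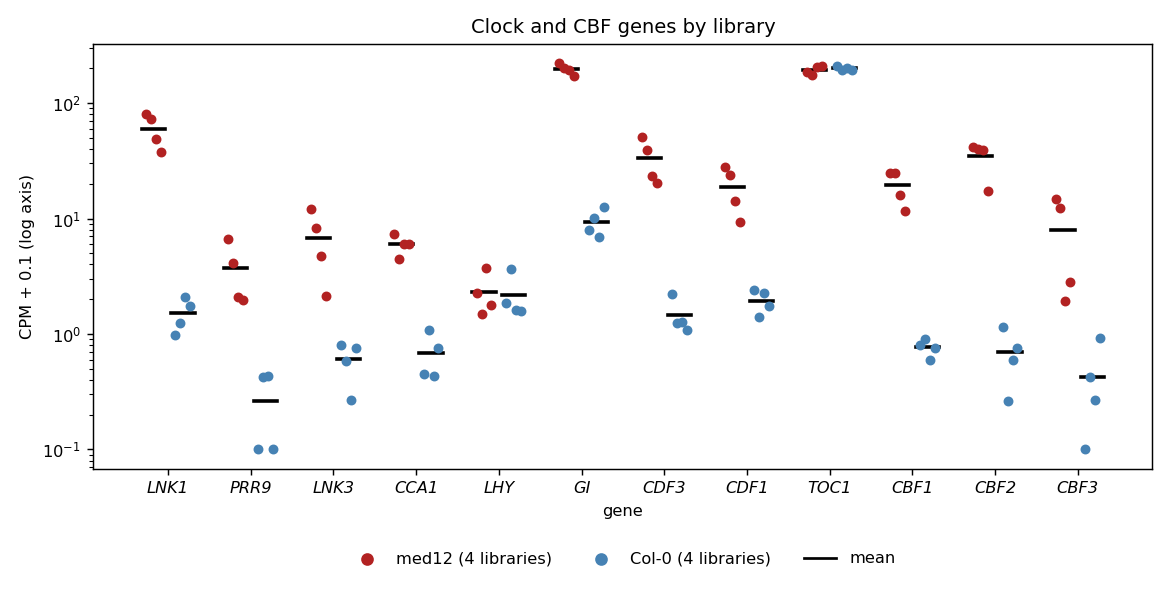
CPM of 12 clock and CBF/DREB1 genes in each library, on a log axis of CPM + 0.1, with *med12* (4 points, left of each pair) and Col-0 (4 points, right), and a bar at each group's mean. The *LNK1*, *GI*, *CDF3*, *CBF1* and *CBF2* points of *med12* lie far above those of Col-0, while the *LHY* and *TOC1* points overlap.

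Of 16 genes on the evening clock list, 8 were upregulated and 1 was downregulated, and the median log2 fold change was 0.517. *GI*, which controls protein turnover in the clock and the flowering pathway, was at 221, 201, 195 and 172 CPM in *med12*, against 7.93, 9.91, 6.82 and 12.6 CPM in Col-0. This difference was large against the spread within both groups (log2 fold change 4.40, standard error 0.14, adjusted p = 4e-10). All 4 DOF factor genes on the list were upregulated too, among them the cycling DOF factors that repress *CO*. *CDF3* was at 50.7, 39.1, 23.3 and 20.3 CPM in *med12*, against 2.12, 1.14, 1.17 and 0.983 CPM in Col-0 (log2 fold change 4.62). *CDF1* had a log2 fold change of 3.33, *CDF2* of 1.75 and AT1G69570 of 2.31. *TOC1*, *ELF3*, *ELF4* and *LUX*, the dusk repressors and the evening complex, were not called, with log2 fold changes between -0.13 and 0.36. *JMJ30*, a histone demethylase gene expressed at dusk, was lower in *med12*, with a log2 fold change of -0.83.

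The genes for the CBF and DDF transcription factors, which switch on the cold and drought responses, were upregulated in *med12*, most of them against a Col-0 level close to 0. Of 8 genes tested from this list, 7 were upregulated, and *TINY*, another gene of the DREB family, was downregulated, with a list median of 4.58. *CBF2* was at 41.2, 40.1, 39.1 and 17.2 CPM in *med12*, against 1.06, 0.163, 0.499 and 0.655 CPM in Col-0 (log2 fold change 5.83, standard error 0.52, adjusted p = 2.6e-06). *CBF1* was at 24.7, 24.7, 15.9 and 11.6 CPM in *med12*, against 0.705, 0.813, 0.499 and 0.655 CPM in Col-0. *DDF1* was at 18.3, 10.8, 23.3 and 4.09 CPM in *med12*, and no Col-0 library held a count of it. Against a floor of 3 counts per library it was at least 28.2-fold higher. *CBF3* spread more widely, at 14.6, 12.2, 1.82 and 2.73 CPM in *med12*, against 0, 0.325, 0.166 and 0.819 CPM in Col-0. The cold-regulated genes that the CBF factors are known to activate did not follow. Of 12 genes tested on that list, 1 was upregulated and 1 was downregulated, and their median log2 fold change was -0.03. *COR15A*, which protects chloroplast membranes in the cold, was at 39.0, 35.7, 25.3 and 24.9 CPM in *med12*, against 60.3, 40.6, 54.8 and 31.3 CPM in Col-0, and the groups overlapped. Without Col-0 replicate 4, *COR15A* was downregulated at a log2 fold change of -0.73 and an adjusted p of 0.038 by edgeR. *COR413IM1*, which encodes a protein of the inner chloroplast membrane, was lower in *med12*, with a log2 fold change of -1.26. *RD29B* was the member that rose, at 71.7, 59.2, 29.8 and 28.6 CPM in *med12*, against 9.52, 6.34, 6.16 and 5.24 CPM in Col-0, and it is known as an abscisic acid response gene.

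*CBF1*, *CBF3* and *CBF2* lie next to each other on chromosome 4. Their windows from 250 bases before the annotated start to 50 after it are given from TAIR10.1, because each holds the letters AAATATCT. These letters are taken here as the evening element, through which clock factors of the CCA1 and RVE8 families bind DNA. Of 8 promoters on the list 6 held it on either strand, against 5.95% of all promoters of tested protein-coding genes. The element, or its reverse complement, is in capitals. *CBF1* lies at chr4:13022947-13023246, minus strand, *CBF2* at chr4:13016186-13016485, minus strand, and *CBF3* at chr4:13019351-13019650, minus strand.
CBF1: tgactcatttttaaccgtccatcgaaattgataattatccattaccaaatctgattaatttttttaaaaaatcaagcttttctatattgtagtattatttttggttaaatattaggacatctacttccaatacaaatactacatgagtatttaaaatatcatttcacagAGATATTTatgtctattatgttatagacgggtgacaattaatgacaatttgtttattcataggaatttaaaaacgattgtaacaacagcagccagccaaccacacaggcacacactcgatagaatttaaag
CBF2: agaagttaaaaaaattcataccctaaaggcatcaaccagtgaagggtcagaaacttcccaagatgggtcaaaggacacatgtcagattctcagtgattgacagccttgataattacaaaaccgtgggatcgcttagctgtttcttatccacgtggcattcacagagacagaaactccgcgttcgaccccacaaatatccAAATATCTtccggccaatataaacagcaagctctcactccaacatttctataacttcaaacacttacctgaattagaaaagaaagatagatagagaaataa
CBF3: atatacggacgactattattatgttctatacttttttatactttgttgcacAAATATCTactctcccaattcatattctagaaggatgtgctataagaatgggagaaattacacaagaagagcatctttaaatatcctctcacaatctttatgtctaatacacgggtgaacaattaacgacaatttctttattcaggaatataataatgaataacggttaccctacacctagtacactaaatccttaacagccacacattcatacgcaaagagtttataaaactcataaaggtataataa

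Genes of the rapid response to touch, wounding and elicitors rose together. Of 16 genes tested on this list, 14 were upregulated and none was downregulated, with a median log2 fold change of 1.38. *WRKY40*, a transcription factor of early defence, was at 78.1, 63.7, 83.8 and 63.5 CPM in *med12*, against 13.0, 13.8, 12.5 and 13.3 CPM in Col-0 (log2 fold change 2.45, standard error 0.31, adjusted p = 4.5e-05). *ERF105*, an ethylene response factor induced within minutes by cold and wounding, had a log2 fold change of 2.22. *TCH2*, a calmodulin-like gene known for its induction by touch, was at 71.0, 65.1, 68.5 and 64.2 CPM in *med12*, against 36.8, 33.6, 31.1 and 33.8 CPM in Col-0. The redox-responsive factor *RRTF1*, among the largest rises of all genes, was at 62.8, 51.7, 61.2 and 23.0 CPM in *med12*, against 0.353, 0, 0.166 and 0.328 CPM in Col-0 (log2 fold change 7.76, standard error 1.13, adjusted p = 0.00013).

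Jasmonate genes formed a second block, with 14 of 20 upregulated, none downregulated and a median of 1.08. They included the lipoxygenases that start jasmonate synthesis and the JAZ repressors that jasmonate itself induces. *LOX4* was at 67.0, 48.4, 65.4 and 49.6 CPM in *med12*, against 4.76, 5.85, 4.49 and 4.26 CPM in Col-0 (log2 fold change 3.56, standard error 0.50, adjusted p = 9.1e-05). *LOX3* had a log2 fold change of 2.53 and *JAZ8* of 3.89. The *med12* libraries lay above the Col-0 libraries for all 3. On the salicylic acid list 3 of 12 genes were upregulated and 1 was downregulated. *CBP60G*, an activator of salicylic acid synthesis, was at 63.3, 68.7, 88.2 and 78.5 CPM in *med12*, against 10.2, 10.9, 8.66 and 9.01 CPM in Col-0 (log2 fold change 2.94, adjusted p = 4.3e-06). *SARD1*, which acts with it, had a log2 fold change of 2.52. *WRKY70*, a transcription factor downstream of salicylic acid, was at 36.3, 46.4, 42.7 and 42.9 CPM in *med12*, against 24.5, 17.7, 16.0 and 20.3 CPM in Col-0. The downregulated gene was the pathogenesis-related gene *PR5*, at a log2 fold change of -0.88 (adjusted p = 0.045) with groups that overlapped. It was not called without Col-0 replicate 2 or 4 or without *med12* replicate 2, 3 or 4, with adjusted p of 0.051 to 0.19 by edgeR. Genes described as NBS-LRR resistance proteins, the intracellular receptors of immunity, leaned upward, with 27 upregulated and 7 downregulated of 143. Among them AT5G41750 was at 50.4, 41.9, 76.0 and 39.0 CPM in *med12*, against 3.17, 3.90, 5.33 and 4.59 CPM in Col-0.

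**Figure D2:**
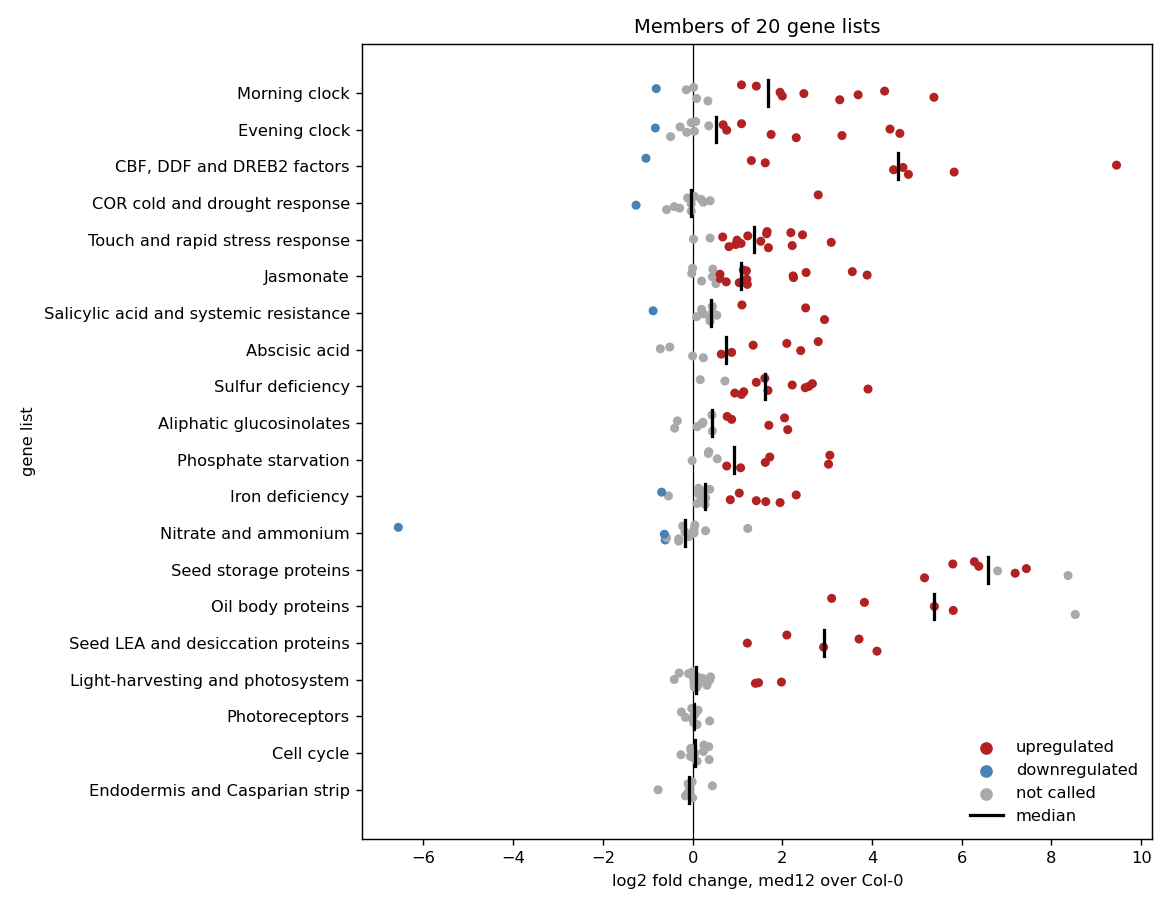
Log2 fold change, *med12* over Col-0, of every tested gene on 20 lists, 1 point a gene, with upregulated genes in red, downregulated genes in blue, others in grey, and a black tick at the list's median. The sulfur, touch, jasmonate, CBF and seed lists lie mostly right of 0, while the photoreceptor, cell cycle and endodermis lists gather at 0.

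Most sulfur deficiency genes were upregulated. Of 13 genes tested 11 were upregulated and none downregulated, with a median of 1.61. *SDI1*, a repressor of glucosinolate synthesis made when sulfur is short, was at 45.3, 41.4, 25.0 and 25.7 CPM in *med12*, against 3.70, 7.48, 4.49 and 5.74 CPM in Col-0 (log2 fold change 2.67, standard error 0.26, adjusted p = 4.7e-06). *LSU1* was at 32.9, 34.0, 24.2 and 22.5 CPM in *med12*, against 2.12, 7.48, 2.83 and 6.23 CPM in Col-0. *BGLU28*, a beta-glucosidase linked to glucosinolate breakdown, had a log2 fold change of 3.91. The high-affinity sulfate transporters *SULTR1;1* and *SULTR1;2* were the members not called, although *SULTR1;1* was upregulated without *med12* replicate 3 (log2 fold change 0.94, adjusted p = 0.036 by edgeR). Aliphatic glucosinolate genes, which use sulfur, also leaned upward, with 5 of 12 upregulated. *CYP79F1*, the entry enzyme of that pathway, was at 109, 108, 81.9 and 92.8 CPM in *med12*, against 17.3, 30.2, 16.8 and 25.4 CPM in Col-0, but it lies beside its close copy *CYP79F2*, between which reads may be divided.

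Phosphate starvation genes were upregulated in 6 of 10 cases, and none fell. *MGD3*, which makes galactolipids that replace phospholipids, was at 20.8, 25.5, 25.0 and 13.8 CPM in *med12*, against 3.00, 3.74, 1.5 and 2.13 CPM in Col-0 (log2 fold change 3.03, adjusted p = 2.3e-06). *SPX1*, a phosphate sensor gene, had a log2 fold change of 1.72. Of 18 iron deficiency genes 6 were upregulated and 1 was downregulated, and here the Col-0 libraries spread more than those of *med12*. *FRO2*, the root ferric reductase, was at 105, 75.8, 88.9 and 58.9 CPM in *med12*, against 9.52, 32.7, 20.8 and 2.95 CPM in Col-0 (log2 fold change 2.31, standard error 0.37, adjusted p = 0.0003). Ferritins, the iron stores, were not called, and all 3 had *med12* libraries below the Col-0 libraries. Nitrate and ammonium genes differed from these lists, with 3 of 15 downregulated and none upregulated. *NRT2.3*, a gene of the high-affinity nitrate transporter family, was at 0, 0.155, 0.166 and 0 CPM in *med12*, against 9.52, 7.64, 15.8 and 5.57 CPM in Col-0 (adjusted p = 1.6e-05). From the 2 counts in *med12* the level there was 117-fold lower, with a 95% Clopper-Pearson interval of 32.0 to 971 that covers counting error only.

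Transcripts of the seed program, which normally ends at germination, were higher in *med12* seedlings, and they spread widely between the *med12* libraries. Of 8 seed storage protein genes 6 were upregulated, of 5 oil body genes 4, and all 5 desiccation protein genes that could be tested of 8 listed. The list medians were 6.59, 5.39 and 2.92 on the log2 scale, and that of the oil body genes was 3.90 with *ATS1*, which had no count in Col-0, set at its lower bound. *CRA1*, a 12S globulin of the protein bodies, was at 169, 132, 135 and 28.3 CPM in *med12*, against 7.23, 2.93, 0.999 and 1.97 CPM in Col-0 (log2 fold change 5.17, standard error 0.94, adjusted p = 0.00072). *SESA3*, a 2S albumin, was at 44.3, 0.464, 45 and 0.681 CPM in *med12*, against 0.353, 0.163, 0.333 and 0.164 CPM in Col-0 (log2 fold change 6.38, standard error 2.05, adjusted p = 0.024). Replicates 1 and 3 were high and replicates 2 and 4 close to the Col-0 libraries. *OLEO1*, the main oleosin of oil bodies, was at 49.7, 15.9, 48.3 and 3.24 CPM in *med12*, against 1.23, 0.163, 0.333 and 0.328 CPM in Col-0. *OLEO2* varied less, at 57.8, 38.2, 41.9 and 19.2 CPM in *med12*, against 1.59, 0.650, 0.832 and 0.655 CPM in Col-0 (log2 fold change 5.39, standard error 0.67, adjusted p = 3.5e-05). Summed over the 8 desiccation genes listed, the level was highest in replicates 1 and 2 instead, at 159, 163, 61.4 and 77.3 CPM in *med12*. *EM6*, an early methionine-labelled LEA gene, was at 10.9, 10.7, 3.81 and 4.09 CPM in *med12*, against 1.06, 0.813, 1.33 and 0.655 CPM in Col-0. Summed over the 8 storage protein genes, the levels were 486, 198, 399 and 37.0 CPM in *med12*, against 8.11, 3.74, 2.66 and 3.44 CPM in Col-0.

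The storage genes not called were *CRU2* and *SESA1*, which had the same pattern of high and low libraries. *CRU2* was at 42.0, 0.619, 39.9 and 0.341 CPM in *med12* and at no more than 0.176 CPM in Col-0, with an adjusted p of 0.077. Among 11 regulators of the seed program 3 were upregulated. *ABI3*, the B3-domain factor that drives storage genes, was at 25.2, 7.42, 13.9 and 4.77 CPM in *med12*, against 1.59, 1.63, 1.17 and 1.31 CPM in Col-0 (log2 fold change 3.15, standard error 0.69, adjusted p = 0.0025). *DOG1*, the dormancy gene, was at 5.88, 5.26, 6.29 and 2.73 CPM in *med12*, against 0.529, 0, 0.333 and 0.492 CPM in Col-0. *FUS3*, a second B3 factor, was at 8.57, 1.24, 11.4 and 0.170 CPM in *med12* and overlapped Col-0 in replicate 4. The genes that silence the seed program, *VAL1*, *VAL2*, *VAL3* and *PKL*, were not called, with log2 fold changes between 0.05 and 0.18. In all 4 *med12* libraries each of the 8 storage protein genes was above every Col-0 library. For *CRU2* and *SESA3* the lowest *med12* value was at or under 3 counts, so there the separation rests on very few counts. The number past the test depended on the libraries. Leaving out *med12* replicate 1 or 3, or any 1 Col-0 library, left 3 storage protein and 2 oil body genes upregulated, with *SESA3* at an adjusted p of 0.055 to 0.060 and *FUS3* at 0.079 to 0.11 by edgeR. Leaving out *med12* replicate 2 or 4 gave 7 storage protein genes, with *SESA1* upregulated at an adjusted p of 0.038 and 0.042 by edgeR, and without replicate 2 the desiccation genes upregulated were 4 of 5. When the test itself was against a 1.5-fold change, 2 storage protein, 2 oil body and 4 desiccation genes were upregulated. Without both replicates 1 and 3, a fit chosen after the data were seen, 1 storage protein gene, 1 oil body gene and all 5 desiccation genes were upregulated.

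**Figure D3:**
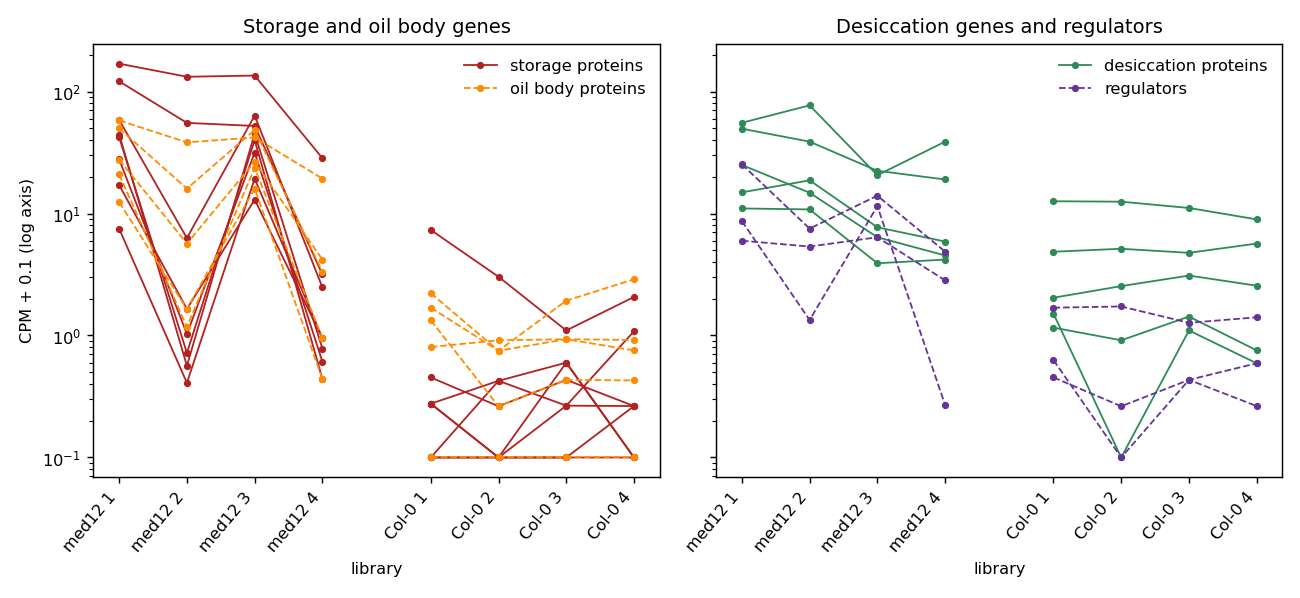
Left, CPM of 8 storage protein and 5 oil body genes in each library, on a log axis of CPM + 0.1, 1 line a gene, with the *med12* libraries left and the Col-0 libraries right. Right, the same for the 5 desiccation genes and 3 seed regulators that were upregulated. Most storage and oil body lines are higher in *med12* replicates 1 and 3 than in 2 and 4, while all 5 desiccation lines are higher in replicates 1 and 2 than in 3.

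The windows about the annotated starts of *CRU3*, *SESA3* and *OLEO1*, from TAIR10.1, are shown because an RY repeat, the letters CATGCA bound by B3 factors such as ABI3 and FUS3, was found in 7 of 8 storage protein and 5 of 5 oil body promoters, against 8.83% of all promoters of tested protein-coding genes. The repeat or its reverse complement is in capitals. *CRU3* lies at chr4:14087306-14087605, plus strand, *SESA3* at chr4:13611546-13611845, plus strand, and *OLEO1* at chr4:12900180-12900479, plus strand.
CRU3: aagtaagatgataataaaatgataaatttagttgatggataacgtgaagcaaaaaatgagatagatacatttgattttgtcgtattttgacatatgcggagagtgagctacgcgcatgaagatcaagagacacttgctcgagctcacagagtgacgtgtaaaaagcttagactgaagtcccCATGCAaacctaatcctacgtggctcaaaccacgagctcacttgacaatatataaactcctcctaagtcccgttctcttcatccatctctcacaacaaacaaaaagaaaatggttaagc
SESA3: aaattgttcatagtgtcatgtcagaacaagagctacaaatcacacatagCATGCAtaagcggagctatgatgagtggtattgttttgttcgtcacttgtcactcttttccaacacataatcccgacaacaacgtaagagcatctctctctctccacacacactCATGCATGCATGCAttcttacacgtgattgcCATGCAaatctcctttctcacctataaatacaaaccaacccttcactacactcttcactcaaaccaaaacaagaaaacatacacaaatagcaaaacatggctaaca
OLEO1: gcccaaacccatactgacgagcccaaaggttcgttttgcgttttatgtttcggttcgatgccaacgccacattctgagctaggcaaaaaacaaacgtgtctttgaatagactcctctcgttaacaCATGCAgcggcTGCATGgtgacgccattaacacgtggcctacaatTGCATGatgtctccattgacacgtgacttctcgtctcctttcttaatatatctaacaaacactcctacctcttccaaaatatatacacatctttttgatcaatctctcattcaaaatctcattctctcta

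Of 26 light-harvesting and photosystem genes 3 were upregulated (11.5%, against 7.67% of all genes tested), and none was downregulated. The 3 were the *LHCB2* genes, which encode an antenna protein of photosystem II. *LHCB2.3* was at 103, 93.9, 89.2 and 83.8 CPM in *med12*, against 22.2, 22.1, 24.0 and 25.4 CPM in Col-0 (log2 fold change 1.98, standard error 0.07, adjusted p = 5.2e-10). *LHCB2.1* and *LHCB2.2* had log2 fold changes of 1.40 and 1.47, though as near-identical copies they may share reads. Of 15 chlorophyll synthesis genes only *CAO*, the enzyme that makes chlorophyll b, was called, at 126, 123, 111 and 102 CPM in *med12*, against 36, 35.9, 34.6 and 36.9 CPM in Col-0. Among 12 factors of greening 5 were upregulated and 2 downregulated. *BBX28*, a B-box repressor of HY5, was at 36.4, 27.5, 22.5 and 18.2 CPM in *med12*, against 2.47, 2.28, 1.5 and 3.11 CPM in Col-0. *CGA1* and *GNC*, paired GATA factors that promote greening, had log2 fold changes of -1.46 and -0.90. None of 10 photoreceptor genes was called. The bHLH factors *PIF4*, *PIF5* and *PIF7*, which promote stem growth, were upregulated, with *PIF5* at 115, 117, 120 and 122 CPM in *med12*, against 41.1, 42.9, 35.3 and 50.6 CPM in Col-0.

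Flowering genes moved at a few points and not all in 1 direction. Of 15 floral repressor genes 3 were upregulated and 1 was downregulated, with log2 fold changes from -1.85 to 1.68. Of 4 floral integrator and activator genes that could be tested, 1 was downregulated and none upregulated. *FLC*, the floral repressor, was at 26, 27.4, 26.3 and 21.5 CPM in *med12*, against 10.6, 7.96, 5.83 and 7.21 CPM in Col-0 (log2 fold change 1.68, standard error 0.15, adjusted p = 2.2e-06). *CO*, the photoperiod activator, was at 6.55, 4.02, 3.31 and 3.75 CPM in *med12*, against 14.3, 16.1, 11.7 and 21.5 CPM in Col-0 (log2 fold change -1.85, adjusted p = 0.00012). *FT*, the mobile flowering signal, was too low to be tested, with no more than 1 count in each *med12* library and no more than 6 in each Col-0 library. Abscisic acid genes were upregulated in 6 of 10 cases. *CYP707A3*, which breaks the hormone down, was at 73.1, 63.4, 76.3 and 48.4 CPM in *med12*, against 15.3, 11.7, 10.8 and 11.3 CPM in Col-0. *NCED3*, the enzyme that limits its synthesis, had a log2 fold change of 1.35. Of 9 ethylene genes 3 were upregulated and 2 downregulated, with a median log2 fold change of 0.0144. *ACS6*, an enzyme of ethylene synthesis and the largest rise among them, was at 162, 142, 163 and 116 CPM in *med12*, against 23.1, 22.1, 20.1 and 19.0 CPM in Col-0. Of 9 cytokinin genes 2 were downregulated and none upregulated. *IPT3*, an enzyme of cytokinin synthesis, was lower in *med12*, with a log2 fold change of -1.55.

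Several lists of cell type and growth markers held no called gene. None of 7 root hair, 9 Casparian strip, 7 suberin and 11 cell cycle genes was called. Of 8 stomatal lineage genes 1 was upregulated and 2 were downregulated, and of 7 trichome genes 1 was called in each direction. On the shoot meristem list 3 of 7 genes were upregulated, but none was when the test itself was against a 1.5-fold change. *STM*, which keeps the meristem undifferentiated, was at 18.3, 20.3, 22.7 and 16.9 CPM in *med12*, against 9.52, 9.43, 10.5 and 12 CPM in Col-0 (log2 fold change 0.91). Of the floral organ identity genes that could be tested, *PI* was upregulated and *SEP3* downregulated, with log2 fold changes of 2.44 and -1.70. Few genes of the basic machinery were called, with 2 upregulated and 1 downregulated of 313 described as ribosomal proteins, none of 41 histones and 7 of 254 pentatricopeptide repeat proteins called.

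Several families of cell surface and wall proteins held more downregulated than upregulated genes. Of 69 genes described as lipid-transfer or 2S albumin proteins 16 were downregulated and 6 upregulated, and of 60 pectin-modifying enzymes 12 and 5. Of 41 arabinogalactan proteins 6 were downregulated and none upregulated, and of 9 tested genes matched as class III peroxidases 3 and none. The match was by words in product names and found only 12 such peroxidase genes, so members described in other words were not counted. *EXPA16*, an expansin that loosens cell walls, was at 3.19, 3.71, 4.47 and 4.09 CPM in *med12*, against 46.7, 48.4, 46.4 and 49.5 CPM in Col-0 (log2 fold change -3.62, standard error 0.15, adjusted p = 3.8e-09). *PRXCA*, a wall peroxidase, was at 10.6, 18.2, 15.7 and 11.8 CPM in *med12*, against 47.1, 47.8, 40.6 and 60.3 CPM in Col-0. Expansins did not share a direction, since *EXPA2* was at 24.0, 18.6, 14.9 and 8.86 CPM in *med12*, against 1.41, 1.63, 0.666 and 0.164 CPM in Col-0. The same was true of the SAUR growth genes, of which 15 were upregulated and 13 downregulated of 52.

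**Figure D4:**
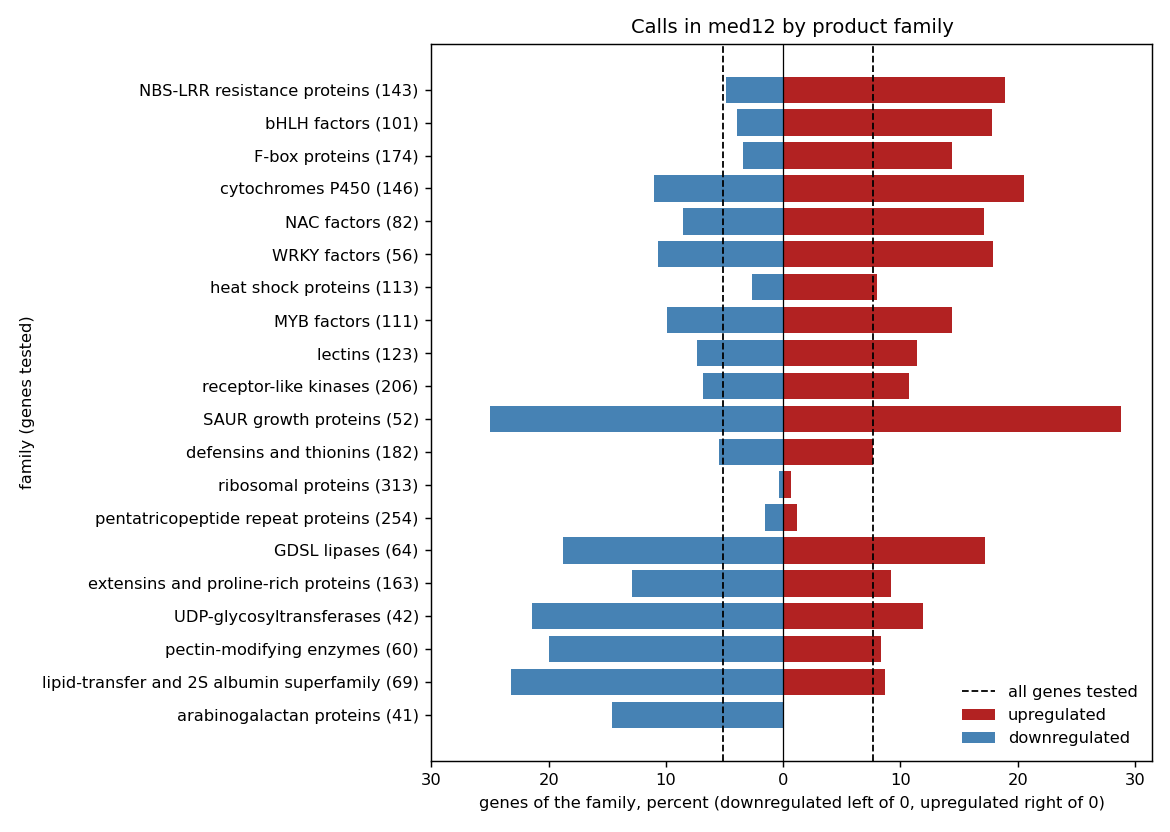
Share of the tested genes of 20 product families that were upregulated (bars to the right, red) and downregulated (bars to the left, blue) in *med12*, in percent, with dashed lines at the shares over all 20681 genes tested. NBS-LRR, F-box and bHLH genes exceed the dashed line on the right only, and lipid-transfer, pectin-modifying and arabinogalactan genes exceed the one on the left. Families were matched by words in product names. The bar for defensins and thionins also holds genes of other kinds, such as *MSRB8*, so it does not describe that family.

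The largest falls included genes with few or no counts in *med12*. AT4G01390, a TRAF-like gene, was at 0.504, 0.155, 0 and 0.341 CPM in *med12*, against 29.8, 24.2, 25.3 and 26.5 CPM in Col-0 (log2 fold change -6.63, standard error 0.32, adjusted p = 1e-08). Its neighbour AT4G01380, described as a plastocyanin-like protein, had no count in any *med12* library and 3.35, 2.76, 3.99 and 4.1 CPM in Col-0, at least 7.19-fold lower against 3 counts per library. They are neighbours, and in order along the chromosome the intervals are chr4:569148-570076 and chr4:570200-571595 in TAIR10.1. AT2G06845 had 1 count over the 4 *med12* libraries, against 84.8 to 92.4 CPM in Col-0, 2150-fold lower with a 95% Clopper-Pearson interval of 386 to 85000. Each of 10 other wild-type libraries of the series also held at most 1 count of it, so the Col-0 libraries of this comparison stood apart from them. The fall of this gene is therefore relative to these Col-0 plants only, and where the difference arose was not tested.

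Promoter sequence was compared between the groups as a description. The G-box was found in 15.0% of the promoters of upregulated genes, 6.62% of those of downregulated genes and 8.56% of those of genes not called. The evening element was in 8.49, 6.32 and 5.71% of them, and the RY repeat in 13.7, 14.6 and 8.08%. The TATA box letters TATAAA were in 55.6, 59.9 and 50.8%, and the letters CCGAC, the core that CBF factors bind, in 14.2, 14.9 and 16.2%. All counts were over both strands of the same 300-base window. By list, the evening element was in 7 of 16 evening clock promoters, and the G-box in 4 of 5 desiccation and 5 of 8 storage protein promoters. A published list of genes strongly bound by MED12 was also read. Of its 1639 tested genes 11.1% were upregulated and 4.94% downregulated, with a median log2 fold change of 0.0063.

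The same gene was disrupted elsewhere in the series with another allele. *morc1/med12* seedlings carry a frame shift in *MED12* made with CRISPR-Cas9, in the *morc1* mutant with the *SDC:GFP* transgene, and 3 libraries of them were compared with 3 *morc1* libraries of their own. No library is shared with the long-day comparison, but the allele, the *morc1* mutation, the transgene and the set of plants differ together and cannot be told apart. Of the genes upregulated in *med12* and tested in both, 232 of 1384 (16.8%) were upregulated in *morc1/med12*, against 1.74% of all genes tested in both, and 4.48% were downregulated there. The shared genes are 66.9% of the 347 genes upregulated in *morc1/med12*. Of the downregulated genes 392 of 959 (40.9%) were downregulated in *morc1/med12*, against 3.64% of all, and 1 gene (0.104%) was upregulated. These are 54.1% of the 725 genes downregulated there. The number downregulated in *morc1/med12* itself depended on the libraries used, with 752 genes from all 6. Leaving out *morc1* replicate 5 gave 885 and leaving out *morc1* replicate 6 gave 482. Leaving out *morc1/med12* replicate 1, 2 or 3 gave 514, 546 and 549. The difference between the effects was tested as an interaction over the 14 libraries. The effect in the long-day wild type was the more positive for 980 of 20904 genes (4.69%) and the more negative for 290 (1.39%), and among the genes upregulated in *med12* it was the more positive for 42.5% and the more negative for 0.192%. Among the genes downregulated in *med12* it was the more negative for 14.8% and the more positive for 0.854%. Both sets were chosen by their effect in *med12*, which is itself part of the interaction. The direction of these splits was therefore partly set by the choice, and no conclusion is drawn from it.

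By list, a difference between the backgrounds was found in many stress, sulfur and clock genes. All of the touch genes but *FRK1*, a receptor kinase gene induced by elicitors, had the more positive effect in the long-day wild type, 15 of 16, and in *morc1/med12* 9 of them were downregulated, with a median log2 fold change of -0.862. *WRKY40* had a log2 fold change of -1.68 in *morc1/med12* and a difference between the effects of 4.13 (standard error 0.47, adjusted p = 4e-05). The difference was also positive for 11 of 13 sulfur deficiency genes, 12 of 20 jasmonate genes, 6 of 8 CBF and DREB genes, 7 of 14 morning clock genes, 8 of 16 evening clock genes and 6 of 12 aliphatic glucosinolate genes. *GI* had a log2 fold change of 0.04 in *morc1/med12*, and *LNK1* of 0.36, with differences of 4.34 and 5.01. In none of the 14 fits that left out 1 library did fewer than 15 touch genes, 10 sulfur genes or 10 jasmonate genes show it. No storage protein, oil body, iron or phosphate gene had a positive difference, with at most 2 of a list in any of those fits. In *morc1/med12* itself none of the 2 storage protein genes that could be tested was called, and 2 of 3 oil body, 3 of 18 iron and 2 of 9 phosphate genes were upregulated. In fits that left out 1 of its 6 libraries, the upregulated genes were 0 to 2 storage protein, 2 oil body, 1 to 5 iron and 1 to 3 phosphate genes. The downregulated touch genes were 6 to 11 in those fits. *OLEO2* had a log2 fold change of 3.75 in *morc1/med12*, *ABI3* of 3.78 and *FRO2* of 2.45, and all were upregulated there too. Among the falls, AT4G01390 with -6.84 and *SEP3* with -1.69 were also downregulated in *morc1/med12*.

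**Figure D5:**
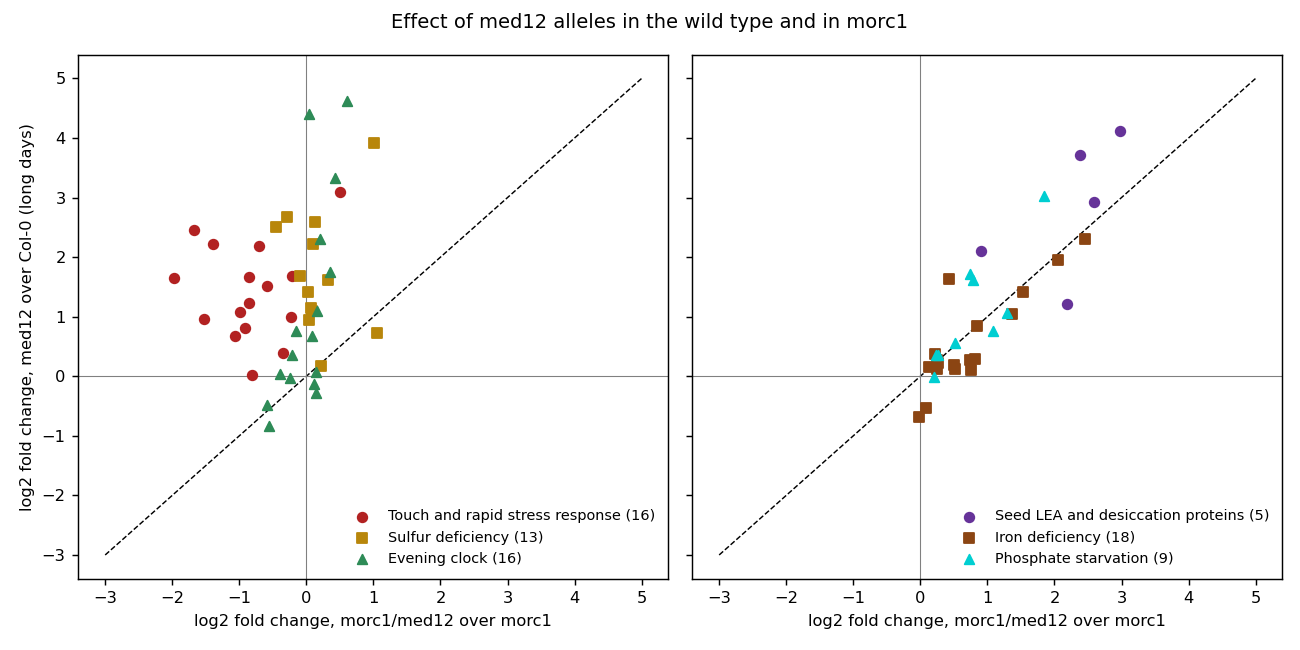
Log2 fold change of *med12* over Col-0 in long days (vertical axis) against that of *morc1/med12* over *morc1* (horizontal axis), 1 point a gene tested in both, for 3 lists in the left panel and 3 in the right, with a dashed line where they are equal. Most touch, sulfur and evening clock genes lie above the line and near or left of 0 on the horizontal axis, and most desiccation, iron and phosphate genes lie to the right of 0, nearer to the line.

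The 4 *med13* libraries grown alongside lack the other large subunit of the module and share the Col-0 controls, so their levels are set beside those of *med12* with no test. The mean of *LNK1* was 60.0 CPM in *med12* and 27.2 CPM in *med13*, and that of *GI* 197 CPM in *med12* and 137 CPM in *med13*. For *WRKY40* the means were 72.3 CPM in *med12* and 43.5 CPM in *med13*, for *SDI1* 34.4 and 10.6 CPM, and for *FLC* 25.3 and 37.7 CPM. Seedlings kept in the dark for 24 h were sampled in 3 libraries a genotype. The libraries of a genotype differed by about sampling noise, at a chi-square per degree of freedom of 0.912 to 1.055. It was highest between *med12* replicates 1 and 3 (chi-square test, p = 0.0386). The libraries of a genotype were counted as 1 sample, so their levels are given without a test. *LNK1* was at 71.3 CPM in *med12* and 68.4 CPM in Col-0 there, *GI* at 113 and 130 CPM, *WRKY40* at 7.31 and 14.7 CPM, and *ABI3* at 14.9 and 1.06 CPM.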

How the data were processed

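RNA was sequenced as single-end reads from whole 8-day-old seedlings. The submitters' processing notes and the study's methods name Trim Galore, STAR against TAIR10, Picard removal of PCR duplicates and HTSeq 0.6.1, and the deposited values are raw read counts per gene or transposable element (TE), 1 file a library, as the authors made them. The libraries were strand-specific and were counted with the reverse strand setting in union mode, so a read over 2 overlapping genes of the same strand is assigned to neither.

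The 4 *med12*, 4 Col-0 and 4 *med13* libraries were fitted together with edgeR 4.0.16 (R 4.3.3) by its quasi-likelihood test, after TMM scaling and filterByExpr. P-values were adjusted by the Benjamini-Hochberg method over 20788 genes and TEs, of which 13 TEs were called. Calls needed more than 1.5-fold and an adjusted p under 0.05. The interaction with the *morc1* background was a second fit over 14 libraries. The test was run on simulated data with known changes first. Total counts and shares were compared by exact permutation tests in SciPy 1.17.1. Gene names, positions and promoter sequences came from the RefSeq annotation of TAIR10.1.

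The members, the 51 gene lists and the 30 product families were chosen with earlier results of these data known. Genes were named by rule: kinase module genes, the 10 largest rises and falls, the first gene and up to 3 called genes per direction of each list, and up to 2 per direction of each family, with groups that do not overlap and at least 1 CPM. CBF3, CCA1, CRU2, SESA1, FUS3, CYP79F2, TOC1, ELF3, ELF4, LUX, PKL, SULTR1;1, SULTR1;2, VAL1, VAL2, VAL3, ATS1, CDF1, CDF2, AT1G69570, WRKY70 and PR5, and others given as single values, were named after their values were seen.

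Alternatives were DESeq2 1.42.0, RLE scaling, no filter on low counts, a fit of 8 libraries, a threshold test (glmTreat), genes without TEs, a replicate block and leaving out each library. Same-numbered *med12* and Col-0 libraries did not deviate together. The comparison planned within dark-treated seedlings was not run, since the libraries of a genotype differed there by about sampling noise. Certain items are not reported here.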

Additional observations from a re-analysis of the deposited data

Results flagged for a closer look

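For 11 of 212 groups of 4 libraries checked, over the 106 genes named here, the highest or the lowest library stood far from the other 3 for its group's range. About 1 in 20 groups is picked out in this way by chance. In *med12*, *CBF2* was low in replicate 4 at 17.2 CPM, *VAL1* was low in replicate 2 at 82.1 CPM, *COR413IM1* was high in replicate 2 at 41.4 CPM, and AT2G06845 had its only count in replicate 4, at 0.17 CPM. In Col-0, replicate 1 was high for *CDF3* at 2.12 CPM, for *OLEO1* at 1.23 CPM and for *CRU2* at 0.176 CPM, and was at 0 CPM for *FRK1*. *LHY* was high in Col-0 replicate 2 at 3.58 CPM, *PR5* was high in Col-0 replicate 4 at 14.4 CPM, and *SESA1* had its only Col-0 count in that library, at 0.164 CPM.

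The effect of *MED12* disruption differed between the long-day wild type and the *morc1* background by an interaction test in edgeR, more positive in the wild type for 980 genes and more negative for 290. The difference was 4.13 on the log2 scale for *WRKY40*, 4.34 for *GI* and 5.01 for *LNK1*. Allele, transgene and set of plants differ between these comparisons and cannot be told apart from the background.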

How the results depend on the processing

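The numbers of upregulated and downregulated genes were 1717 and 1116 with DESeq2, 1579 and 1062 with RLE scaling, 1806 and 1211 without a filter on low counts, and 756 and 417 when the test itself was against a 1.5-fold change. Leaving out 1 library gave 1485 to 1659 and 990 to 1172, and leaving out *med12* replicates 1 and 3 gave 1420 and 892. With the replicate number as a block, though the numbers do not pair the samples, 1545 and 1025 were called, and 4 upregulated oil body genes became 2. The interaction gave 816 to 1051 and 211 to 317 genes when 1 library was left out. No paired analysis was possible because the *morc1* controls carry other replicate numbers. Downregulated genes in *morc1/med12* were 482 to 885 without 1 library, the lowest without *morc1* replicate 6. Of 105 genes named and tested, 99 could be tested in all 16 settings, and 89 of these kept direction and call in each. *ATS1*, *CRU2*, *FRK1*, *FUS3*, *SESA1* and *SESA3* were not tested in the fit of 8 libraries. With the test against a 1.5-fold change, the upregulated abscisic acid and iron genes became 3 each, the aliphatic glucosinolate genes 3, and the downregulated nitrate genes 1. The uncalled *LHY* ranged from -0.25 to 0.49 and the uncalled *TOC1* from -0.071 to 0.016 on the log2 scale without 1 library, and *LHY* was at -0.43 without *med12* replicates 1 and 3. *SESA1* and *CRU2* were upregulated with DESeq2, with adjusted p of 0.00096 and 0.00054. Depth limits the weakest genes, since 3 counts are about 0.5 CPM. The cause of these changes was not tested.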

Other observations

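Further groups held single strong changes. Of 146 cytochrome P450 genes 30 were upregulated and 16 downregulated. *CYP710A4*, a sterol desaturase gene, was at 15.3, 32.3, 18.4 and 19.4 CPM in *med12*, against 1.94, 0.650, 0.333 and 1.15 CPM in Col-0 (log2 fold change 4.39, standard error 0.35, adjusted p = 9.2e-07 by edgeR's quasi-likelihood test). *CYP86A7* went the other way, at 1.01, 0, 0.497 and 0.511 CPM in *med12*, against 5.29, 6.18, 5.49 and 6.39 CPM in Col-0, and *CYP712A1* had a log2 fold change of -3.42. All 3 were called in the same direction in *morc1/med12*, with log2 fold changes of 5.34, -3.49 and -4.27.

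Plastid and epidermal regulators were among the others. *SIG5*, a sigma factor of the plastid polymerase, was at 38.5, 30.9, 21.4 and 17.4 CPM in *med12*, against 6.35, 7.31, 6.82 and 7.05 CPM in Col-0 (log2 fold change 1.97). *ZEP*, the zeaxanthin epoxidase of the xanthophyll cycle, was at 162, 145, 152 and 142 CPM in *med12*, against 77.9, 75.7, 72.1 and 80.6 CPM in Col-0. *MYB96*, an activator of wax synthesis under drought, had a log2 fold change of 1.44, while *CER1*, a wax enzyme gene, was not called at 0.43. In the stomatal lineage *FAMA* was at 32.8, 27.7, 30.0 and 31.7 CPM in *med12*, against 53.4, 52.5, 48.1 and 54.7 CPM in Col-0, and *SDD1* had a log2 fold change of -0.95. *KUF1*, an F-box gene that karrikins induce, was at 21.7, 20.9, 19.0 and 26.9 CPM in *med12*, against 65.7, 64.5, 59.3 and 53.7 CPM in Col-0.

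The branched-chain amino acid transaminase gene *BCAT2* split the *med12* libraries differently from the storage genes. It was at 19.5, 12.8, 63.6 and 48.9 CPM in *med12*, against 97.3, 94.6, 96.9 and 98.6 CPM in Col-0 (log2 fold change -1.43, adjusted p = 0.0025 by edgeR). Replicates 1 and 2 were the lower ones, the same libraries in which the summed level of the desiccation genes was highest.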
